A study of Mus musculus with 4 samples.

Results

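Steroid-metabolizing enzymes of adipocyte progenitor cells were followed through 8 genes: Sult1e1, Hsd11b1, Cyp7b1, Cyp1b1, Srd5a1, Hsd17b4, Hsd17b11 and Hsd3b7. They were chosen by gene symbol, as probes whose design name or current RefSeq symbol is one of these 8, with earlier results of the same contrast in view. Each had 1 probe, so the set is 8 of 36282 gene or transcript names and 8 of 55681 probes on the array. Because the choice used this contrast, the differences of the 8 genes are given as a description and not as independent evidence. The study asked how gene expression differs between adipocyte progenitor cells of Adamts1 transgenic mice and those of wild-type controls. Adamts1 encodes a secreted protease that cleaves proteoglycans of the extracellular matrix. The 2 wild-type and 2 transgenic samples were all from male FVB mice of 4 weeks, carried no treatment, and came from subcutaneous fat by flow sorting, with lysis straight after the sort and no culture. Total RNA of each sample was labelled with Cy3 and hybridised to 1 single-colour Agilent mouse array. The labels do not give the promoter that drives the transgene, the markers of the sort, or how many animals entered a sample, so p-values measure only the spread between these samples.

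Steroid hormones are made, interconverted and inactivated by small groups of enzymes, and fat is a tissue in which much of this takes place outside the endocrine glands. Sult1e1 adds sulfate to oestrogens, which stops them from binding their receptor, while Hsd11b1 does the opposite kind of work for glucocorticoids and turns the inert keto form back into active hormone. Cyp7b1 and Hsd3b7 act one after the other on oxysterols on the way to bile acids, Cyp1b1 makes catechol oestrogens and oxidises xenobiotics, and Srd5a1, Hsd17b4 and Hsd17b11 reduce or oxidise androgens and oestrogens.

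The probes of the member that was lowest in the transgenic samples relative to wild-type, and of those that were highest, identify what was measured. The first 30 of 60 bases are printed in lower case as the scanner files give them, 5′ to 3′. The Sult1e1 probe lies at chr5:88005187-88005246 on the minus strand of mm9, the Cyp7b1 probe at chr3:17972286-17972345 and the Cyp1b1 probe at chr17:80106547-80106606, both also on the minus strand. Exon annotation of mm9 was not used here.
Sult1e1 probe: aatggagctctgagccacttccttgtgtct
Cyp7b1 probe: ttggttgagatcaatccagttggttttggg
Cyp1b1 probe: actacattaagcagatagatcaccatgtat

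Promoter sequence was found in RefSeq (GRCm38.p6) for 6 of the 8 genes. Shown here are the 250 bases before the start site of Sult1e1, the member with the largest difference, and of Cyp1b1. Cyp1b1 itself did not pass the test given below, while the transcript of its regulator Ahr did. A link between them was not tested. The 4 motifs, written here with all their letters, were searched on both strands: AGGTCA (bound by many nuclear receptors as a single repeat), TGTTCT (the core recognised by the glucocorticoid receptor), GCGTG (the core recognised by the aryl hydrocarbon receptor) and TATAAA (the TATA box). Capitals mark the matches, which did not overlap one another. The Sult1e1 window is chr5:87591612-87591861 and the Cyp1b1 window chr17:79715062-79715311, both read on the minus strand.
Sult1e1 promoter: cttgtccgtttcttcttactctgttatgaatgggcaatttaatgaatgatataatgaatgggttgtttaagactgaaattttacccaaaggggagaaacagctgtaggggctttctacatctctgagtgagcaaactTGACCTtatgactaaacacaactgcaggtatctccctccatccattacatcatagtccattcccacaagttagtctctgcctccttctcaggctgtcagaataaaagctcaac
Cyp1b1 promoter: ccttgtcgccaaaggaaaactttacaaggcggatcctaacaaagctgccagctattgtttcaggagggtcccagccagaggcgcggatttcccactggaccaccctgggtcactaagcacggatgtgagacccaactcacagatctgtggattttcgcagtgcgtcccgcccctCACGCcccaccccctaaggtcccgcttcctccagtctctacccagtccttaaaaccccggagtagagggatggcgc
The Sult1e1 window held AGGTCA once, on the reverse strand from -113 to -108 relative to the start site, as do 14.0% of 32851 promoter windows of the same length. The Cyp1b1 window held GCGTG once, on the reverse strand from -76 to -72. GCGTG is found in 28.2% of all windows, and it was also in the windows of Hsd11b1, Srd5a1 and Hsd17b11. TGTTCT and TATAAA, present in 16.1% and 12.4% of all windows, were in none of the 6, and the Hsd3b7 window held none of the 4 motifs. Of the Sult1e1 window 40.8% was G or C, of the Cyp1b1 window 58.0%, beside a median of 52.4% over all windows. These matches describe letters in the windows and say nothing of what binds there.

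The 4 arrays differed somewhat in brightness. Of 59305 spots that are not controls, 47.0% were well above background in wild-type 1 and 55.5% to 57.0% in the other 3 arrays, and the log2 signals of the wild-type pair correlated at 0.986 and those of the transgenic pair at 0.994. The probe of Adamts1 itself read 6.85 and 6.92 in wild-type and 6.98 and 7.05 in transgenic samples (log2 signal relative to the array's 75th percentile), a difference of 0.13 ± 0.10 (SE, n = 2 and 2; limma adjusted p = 0.510). It did not pass the test, and the labels do not say whether this probe reads the transcript of the transgene. Markers of the labelled cell type were present: all 17 progenitor and fibroblast genes listed were measured, Pdgfra at 5.43, 5.51, 5.49 and 5.65 and Cd34 at 8.96, 8.79, 8.50 and 8.51, wild-type first. Their median difference was -0.07, in a range from -1.55 to 0.96, with 1 lower in transgenic samples by the test. For the 16 of them well above background on all 4 arrays the median was -0.14. Lists of markers of other cells differed among themselves. Counting the genes well above background on all 4 arrays, 6 of 10 macrophage markers passed as higher in the transgenic samples (median difference 1.94), as did 5 of 12 mature adipocyte markers (1.67), 3 of 8 endothelial markers (0.85) and 1 of 6 lymphocyte markers (0.37). Of 10 smooth muscle markers 2 passed as higher and 1 as lower, of 5 Schwann cell markers 1 each way, and of 2 epithelial markers 1 as lower. The summed linear signal of all tested markers was 66.6 to 67.7 in wild-type and 80.1 to 80.2 in transgenic samples for macrophages, 345 to 348 and 606 to 635 for mature adipocytes, 136 to 149 and 198 to 220 for lymphocytes, a list that shares Thy1 with the progenitors, and 74.9 to 76.7 and 85.2 to 101 for smooth muscle. The sums overlapped for endothelial cells (28.9 to 33.8 and 29.4 to 29.9) and were lower in transgenic samples for Schwann cells (70.7 to 87.1 and 61.9 to 62.5) and epithelium (4.30 to 4.61 and 2.76 to 2.89). Bright genes weigh most in such sums. Some markers entered them through 1 group only: 9 of 19 for macrophages, 4 of 16 for adipocytes, 3 of 9 for lymphocytes and 7 of 15 for endothelium. The sums therefore describe the samples and do not measure the share of a cell type. The markers Cd163, Fcgr1 and Cx3cr1 of macrophages, Lep of adipocytes and Erg of endothelium were not above background on any array. Of 10 markers of steroid-producing glands 9 had a probe, 4 were tested and 0 passed. Their sums were 25.3 to 31.2 and 25.1 to 26.6, and Cyp11b2 and Hsd3b1 were not above background on any array.

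Each of the 8 enzyme probes was well above background on every array and none was saturated, so each gene has a measured level in both groups. In the transgenic samples Sult1e1 was 4.72-fold lower and Cyp7b1 2.04-fold higher. Cyp1b1 was 1.59-fold higher by its means without passing the test, and the other 5 lay within 1.32-fold of wild-type by their means. Over all 21531 features tested, 541 passed at a limma adjusted p under 0.05, which is 2.51% of them, with 1.01% lower and 1.50% higher in the transgenic samples. Of the 8 chosen genes 2 passed, 1 in each direction. The arrays of the groups did not overlap for 6 of the 8, beside 53.0% of all features, with 4 of them lower and 2 higher in the transgenic samples. The median difference of the 8 was -0.23 and that of all features 0.00055. By the main scaling 59.9% of the 541 calls were higher in the transgenic samples, and with each array shifted to its median 50.1% of 411 were. The number of calls also depended on single arrays: it was 1391 without wild-type 1, 3772 without wild-type 2, 113 without transgenic 1 and 82 without transgenic 2, with 2, 4, 1 and 1 of the 8 genes among them. Each such fit leaves 1 group with a single array, which is assumed to vary like the other group. At the median SE of 0.16 a 95% interval excludes no change from 1.32-fold on, and an exact permutation test of 2 against 2 cannot go below p = 0.333, so the number of arrays limits the precision. The adjusted p over all features is a stricter bar than that interval. In simulated data with 50 changed features at each fold, 29.1% of 2-fold changes passed it.

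**Figure D1:**
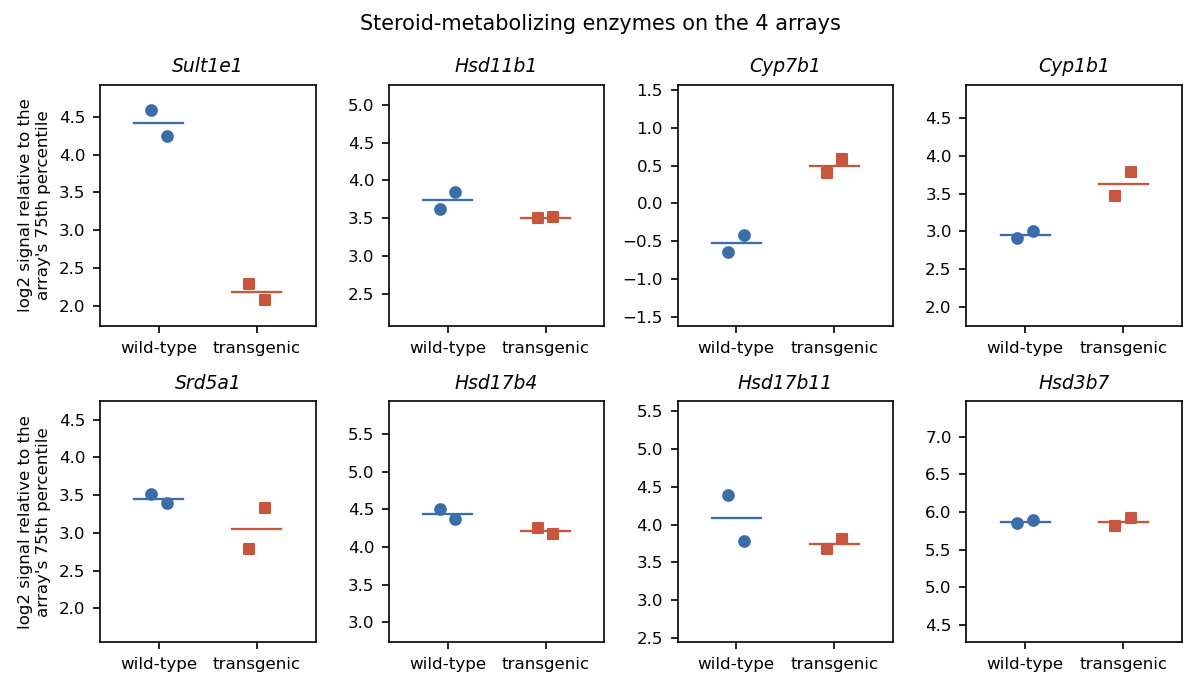
Log2 signal of the 8 steroid-metabolizing enzyme genes relative to each array's 75th percentile (y axis, a window of equal height in every panel) for 2 wild-type (circles) and 2 transgenic (squares) samples, with the group mean as a line. Sult1e1 lies at 4.59 and 4.25 in wild-type and at 2.29 and 2.07 in transgenic samples, Cyp7b1 and Cyp1b1 lie higher in transgenic samples, and the groups overlap for Hsd17b11 and Hsd3b7.

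**Figure D2:**
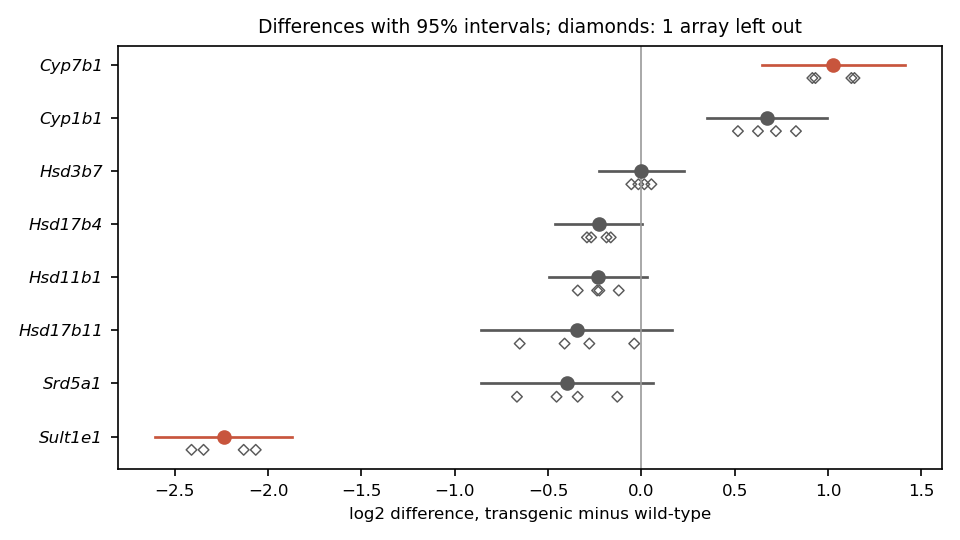
Log2 difference, transgenic minus wild-type, of each gene (filled circles) with the 95% interval of the limma fit (lines), in red for the 2 genes past an adjusted p of 0.05; open diamonds give the difference with 1 of the 4 arrays left out. Sult1e1 stays between -2.41 and -2.07 and Cyp7b1 between 0.92 and 1.14, while the diamonds of Hsd17b11 reach from -0.65 to -0.04 and those of Hsd3b7 lie on both sides of 0.

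Among the enzymes of sulfate transfer, oestrogen sulfotransferase Sult1e1 was lower in both transgenic samples, and most of the other genes of sulfation had small negative differences that did not pass the test. The Sult1e1 probe read 4.59 and 4.25 in wild-type and 2.29 and 2.07 in transgenic samples, on the log2 scale relative to the array's 75th percentile. The lower wild-type value lay 1.96 above the higher transgenic value, so the groups were far apart beside their SDs of 0.24 and 0.15. On the linear scale the processed signals were 5028 and 5508 in wild-type and 1494 and 1250 in transgenic samples, beside a local background of 31.0 to 35.0. The fitted difference was -2.24 ± 0.15 (SE, n = 2 and 2; 95% interval -2.61 to -1.87), a 4.72-fold lower level with an interval of 3.66- to 6.09-fold. It ranged from -2.27 to -2.14 over 12 alternatives of scaling, filtering and variance model, and it passed the test in all 12. With 1 array left out it ranged from -2.41 to -2.07. Sult1e1 has 1 probe, well above background on every array, so filters, probe rules and variance models could not move its difference. Only the scaling, the background correction and the deposited values could. As the gene was chosen from this contrast, the calls are a description. In these sorted samples a smaller number of cells that express Sult1e1 and less Sult1e1 RNA in each cell cannot be told apart. The macrophage and mature adipocyte marker sums given above were higher in the transgenic samples, where Sult1e1 was lower, and their part in this difference was not tested. The markers of the progenitor cells themselves summed to 5962 and 4789 in wild-type and to 4742 and 4816 in transgenic samples.

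Sulfation needs the sulfate donor PAPS, made by Papss1 and Papss2, and is undone by the steroid sulfatase Sts. Of 23 listed genes of sulfation and desulfation 18 were tested, 2 passed as lower and 0 as higher, and the median difference was -0.24 beside 0.00055 over all features. A total of 16 of the 18 had a negative difference, beside 49.9% of all features. Among features with a gene symbol and well above background on all arrays it was 55.3%. Without Sult1e1 the median of the other 17 was -0.24 as well, and it stayed negative under every alternative run (-0.28 to -0.20 over the 12 alternatives with all arrays, Sult1e1 included). The second gene that passed was the sulfotransferase Sult5a1, which read 3.36 and 3.36 in wild-type and 2.70 and 2.84 in transgenic samples, a difference of -0.58 ± 0.09 (limma adjusted p = 0.0470). It passed in 6 of 12 alternatives with all arrays and missed with the median shift, quantile normalization, normexp with or without quantile normalization, no intensity trend, and features without a symbol kept probe by probe (adjusted p = 0.0557 to 0.139). It also did not pass without wild-type 1 (-0.58), transgenic 1 (-0.51) or transgenic 2 (-0.66). Sts, which removes sulfate from steroids, differed by -0.22 ± 0.12 (adjusted p = 0.367). The donor synthases differed by -0.06 ± 0.09 for Papss1 (adjusted p = 0.746) and -0.24 ± 0.15 for Papss2 (adjusted p = 0.437). Of the related sulfotransferases, Sult1a1, which acts mainly on phenols, differed by -0.36 ± 0.22 (adjusted p = 0.421), and the cholesterol and hydroxysteroid sulfotransferase Sult2b1 by -0.92 ± 0.28 (adjusted p = 0.159). The sulfotransferase genes Sult1b1 and Sult1d1 and the casein genes Csn1s1 and Csn2, which flank Sult1e1 on chromosome 5, were not well above background on any array, so nothing can be said about neighbouring genes there.

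The genes whose profile over the 4 arrays was most like that of Sult1e1 were found by the Euclidean distance between profiles centred on their means, among 12144 genes well above background on every array. With 2 arrays a group this likeness mainly reflects the size of the same difference. The nearest were Shisal1 (distance 0.30), the melanocortin receptor accessory protein Mrap2 (0.31), Gprasp2 (0.41), the collagen chain Col8a1 (0.45) and the desmosomal plakophilin Pkp2 (0.46), beside a median distance of 2.23. Shisal1 read 0.65 and 0.31 in wild-type and -1.80 and -1.60 in transgenic samples, and Mrap2 read -0.48 and -0.78 against -2.81 and -3.34. Both were lower in each transgenic sample than in either wild-type sample by 1.91 and 2.03 at the narrowest. The 5 genes differed by -2.45 to -1.79, with limma adjusted p from 0.0152 for Shisal1 to 0.0271 for Col8a1. They were picked for a difference like that of Sult1e1 on these same arrays. That each passed the test follows largely from this choice and is not independent evidence. With normexp background correction the 5 differences were -1.62 to -1.25, and with quantile normalization added -1.58 to -1.19. Without an intensity trend Mrap2, Gprasp2, Col8a1 and Pkp2 did not pass (adjusted p = 0.0593 to 0.0706). Without transgenic 2, Mrap2 (-2.18), Gprasp2 (-1.66), Col8a1 (-1.79) and Pkp2 (-1.60) did not pass, nor did Col8a1 without transgenic 1 (-1.84). Of the 12144 genes 6 were lower by more than Sult1e1. Of the other 7 enzyme genes the nearest was Hsd17b11, at a distance of 1.92, and the farthest was Cyp7b1, at 3.30.

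**Figure D3:**
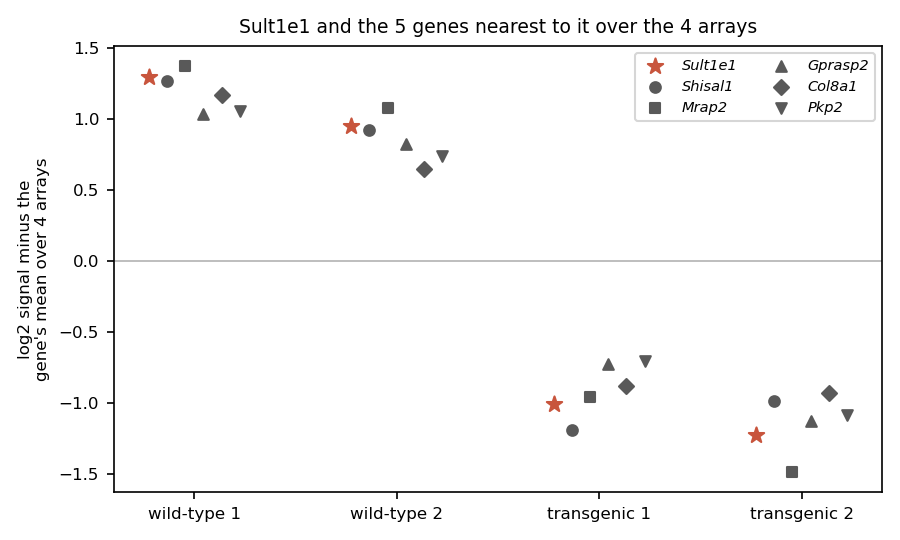
Log2 signal minus the gene's mean over the 4 arrays (y axis) for Sult1e1 (stars) and the 5 genes nearest to it (grey symbols) in each of the 4 samples (x axis). All 6 genes lie above 0.6 in the wild-type samples and below -0.7 in the transgenic samples, and within a group the gene order differs between its samples.

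Among the enzymes of glucocorticoid interconversion no gene passed the test, and the reductase Hsd11b1 had a slightly lower mean in the transgenic samples. Its probe (chr1:195048169-195048228, minus strand, mm9) is printed 10 times on the array, with an SD between spots of 0.055 to 0.093 within an array. It read 3.62 and 3.84 in wild-type and 3.50 and 3.51 in transgenic samples. The groups did not overlap, but the wild-type samples lay 0.22 apart and the higher transgenic value was 0.12 below the lower wild-type value. The difference was -0.23 ± 0.11 (95% interval -0.49 to 0.03), and it was -0.34 without wild-type 1 and -0.12 without wild-type 2. Of 8 listed genes of glucocorticoid interconversion 6 were tested and 0 passed, with a median of 0.21. H6pd, which supplies Hsd11b1 with NADPH inside the endoplasmic reticulum, differed by 0.14 ± 0.10 (limma adjusted p = 0.461). Hsd11b2, the enzyme that inactivates glucocorticoids, had the smallest p of the list. It read -4.81 and -3.28 in wild-type, where 1 of 2 samples was well above background, and -1.34 and -1.57 in transgenic samples, where both were. Its difference of 2.58 ± 0.51 missed the threshold (adjusted p = 0.0714), and with 1 wild-type value not above background its size is uncertain. Hsd11b2 entered the test through the transgenic group alone, where it was high, so its p-values are no independent evidence of the difference. The difference was 0.89 with normexp background correction and 1.04 with normexp and quantile normalization. It passed in 3 of 11 alternatives with all arrays: these 2 and the replicate number as a block. It was 1.82 without wild-type 1 and 3.35 without wild-type 2. The glucocorticoid receptor Nr3c1 differed by 0.12 ± 0.08 (adjusted p = 0.473).

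Of 20 glucocorticoid-induced genes all were tested, 1 passed as higher and 0 as lower, while 17 had a negative difference and the median was -0.31. Of all features 49.9% had a negative difference, and 55.3% of those with a gene symbol and well above background on all arrays. The kinase Sgk1 was the gene that passed, at 4.86 and 4.74 in wild-type and 5.46 and 5.44 in transgenic samples (0.65 ± 0.09, limma adjusted p = 0.0352), and it did not pass without transgenic 1 (0.64), transgenic 2 (0.66) or an intensity trend. The median of the list stayed below 0 under every alternative run, from -0.34 to -0.23 with all arrays and from -0.41 to -0.08 with 1 left out. Its size depended on the wild-type arrays: it was -0.08 without wild-type 1 and -0.41 without wild-type 2. Examples with no call are Tsc22d3 (GILZ), at 4.79 and 4.09 against 4.14 and 3.98 (-0.38 ± 0.23, adjusted p = 0.415), and the receptor co-chaperone Fkbp5, at 3.62 and 3.08 against 2.80 and 3.29 (-0.31 ± 0.23, adjusted p = 0.518). In both the samples of the groups overlapped.

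In the oxysterol branch, the hydroxylase Cyp7b1 was higher in both transgenic samples while the mean of Hsd3b7, which takes the next step on the same sterols, differed little. Cyp7b1 read -0.64 and -0.42 in wild-type and 0.40 and 0.60 in transgenic samples. The gap between the groups, 0.82 at its narrowest, exceeded the 0.23 and 0.19 between samples of a group. The linear signals were 134 and 218 in wild-type and 405 and 450 in transgenic samples, beside a local background of 33.0 to 34.0. The difference was 1.03 ± 0.15 (95% interval 0.65 to 1.41), or 2.04-fold with an interval of 1.57- to 2.66-fold. It ranged from 0.84 to 1.03 over the 12 alternatives and passed in 8 of them, missing with the median shift, quantile normalization, normexp followed by quantile normalization and no intensity trend, and it did not pass without transgenic 1 (1.13) or transgenic 2 (0.93). As for Sult1e1, only the scaling, the background correction and the deposited values could move this difference. The macrophage and mature adipocyte marker sums were higher in the same samples, and their part in this difference was not tested. Of the genes beside Cyp7b1 on chromosome 3, Armc1 differed by -0.39 ± 0.11 (limma adjusted p = 0.144) and Mtfr1 by 0.06 ± 0.11 (adjusted p = 0.801). Bhlhe22 was well above background on 2 arrays and Cypt12 on 0.

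Hsd3b7 (probe at chr7:134947251-134947310, plus strand) read 5.86 and 5.89 in wild-type and 5.82 and 5.93 in transgenic samples. The transgenic values lay on either side of the wild-type values, and the difference was -0.00036 ± 0.09 with a 95% interval from -0.23 to 0.23, which leaves room for a change of that size in either direction. Of 16 listed genes of oxysterol and bile acid synthesis 12 were tested, and Cyp7b1 was the only call, with a median of 0.08. Ch25h, which makes an oxysterol that Cyp7b1 uses as a substrate, read -3.67 and -2.86 in wild-type, where 1 of 2 was well above background, and -2.58 and -1.83 in transgenic samples (1.05 ± 0.40, limma adjusted p = 0.237). Cyp27a1, which makes another oxysterol, differed by -0.41 ± 0.18 (adjusted p = 0.303). The liver enzymes Cyp7a1 and Cyp8b1 and the oxysterol receptor gene Gpr183 were not well above background on any array. The liver X receptors, which bind oxysterols, differed by 0.15 ± 0.09 for Nr1h3 (adjusted p = 0.400) and -0.05 ± 0.10 for Nr1h2 (adjusted p = 0.809). Of 15 of their target genes 13 were tested and 1 passed, the phospholipid transfer protein Pltp, at 2.37 and 2.28 in wild-type and 3.54 and 3.13 in transgenic samples (1.01 ± 0.15, adjusted p = 0.0400). Pltp did not pass without transgenic 1 (0.81), and it passed in 9 of 12 alternatives with all arrays, missing with both quantile normalizations and without an intensity trend (adjusted p = 0.0612 to 0.118). The list median was 0.10, and the cholesterol exporters Abca1 and Abcg1 differed by -0.05 ± 0.17 (adjusted p = 0.893) and 0.10 ± 0.22 (adjusted p = 0.831).

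Among the enzymes that oxidise oestrogens and xenobiotics, Cyp1b1 had higher values in the transgenic samples while the transcript of its activator, the aryl hydrocarbon receptor Ahr, was lower. Cyp1b1 read 2.91 and 3.004 in wild-type and 3.47 and 3.78 in transgenic samples. The groups lay 0.47 apart at the narrowest, beside 0.31 between the transgenic samples. The difference was 0.67 ± 0.13 (95% interval 0.35 to 0.99), and it did not pass the test over all features. It passed in 1 of 12 alternatives and, of the fits with 1 array left out, without wild-type 2 (0.72), with a range of 0.52 to 0.83. The part of the macrophage and mature adipocyte markers, whose sums were also higher in these samples, was not tested. Ahr read 1.67 and 1.69 in wild-type and 0.70 and 0.77 in transgenic samples, a difference of -0.95 ± 0.10 (limma adjusted p = 0.0212) that was -0.91 without transgenic 1 and -0.98 without transgenic 2 and did not pass there or without an intensity trend. Of 10 listed receptor targets 6 were tested and 0 passed, with Cyp1b1 the highest. Tiparp, a feedback target, differed by 0.06 ± 0.10 (adjusted p = 0.774) and the quinone reductase Nqo1 by 0.50 ± 0.21 (adjusted p = 0.288). Cyp1a1, Cyp1a2 and Ahrr were not well above background on any array.

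Of 23 listed genes of catechol and xenobiotic oxidation 16 were tested, 1 passed as higher and 1 as lower, with a median of 0.0042. Over all features 2.51% passed. Cyp4b1, a monooxygenase of fatty acids and xenobiotics, read -0.78 and -0.72 in wild-type and 0.91 and 0.69 in transgenic samples (1.55 ± 0.14, limma adjusted p = 0.0168). Cyp2e1, an oxidase of ethanol and small solvents, read -0.30 and -0.14 against -2.10 and -1.78 (-1.72 ± 0.19, adjusted p = 0.0212). The groups were far apart for both, in opposite directions, and neither passed without an intensity trend, without transgenic 1 (1.44 and -1.56) or transgenic 2 (1.66 and -1.88).

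The 3 members that reduce or oxidise androgens and oestrogens had lower means in the transgenic samples, each by less than 0.4 and none past the test. Srd5a1 (probe at chr13:69712376-69712435, minus strand), which turns testosterone into dihydrotestosterone, read 3.51 and 3.40 in wild-type and 2.79 and 3.32 in transgenic samples. The transgenic samples were 0.54 apart and only the first lay clearly below wild-type, so the difference of -0.40 ± 0.18 (95% interval -0.86 to 0.06) became -0.13 without transgenic 1 and -0.67 without transgenic 2. Hsd17b4, a peroxisomal enzyme of fatty acid oxidation that also oxidises oestradiol, read 4.50 and 4.37 against 4.25 and 4.17. Its groups did not overlap, and its difference was -0.23 ± 0.09 (95% interval -0.46 to 0.0050) with a range of -0.29 to -0.16 when 1 array was left out. Hsd17b11 (probe at chr5:104419127-104419186, minus strand), an enzyme found on lipid droplets that acts on androgens, read 4.40 and 3.78 in wild-type and 3.68 and 3.81 in transgenic samples. The groups overlapped, and the difference of -0.35 ± 0.21 (95% interval -0.86 to 0.17) rested on wild-type 1: it was -0.04 without that array, and it was -0.65 and passed without wild-type 2.

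Of 22 listed androgen and oestrogen redox enzymes 14 were tested and 0 passed, and the median was -0.08. A negative difference was found in 8 of the 14, beside 49.9% of all features. Among features with a gene symbol and well above background on all arrays it was 55.3%. Hsd17b12, which elongates fatty acids and has been linked to oestradiol formation, had the smallest p, at 1.20 and 1.03 in wild-type and 1.61 and 1.76 in transgenic samples (0.57 ± 0.12, limma adjusted p = 0.0814). Hsd17b13, the lipid droplet relative of Hsd17b11, differed by 0.01 ± 0.28 (adjusted p = 0.995), with 1 wild-type and both transgenic samples well above background. Srd5a3, a relative of Srd5a1 that serves protein glycosylation, differed by -0.08 ± 0.13 (adjusted p = 0.785). The aromatase gene Cyp19a1, which makes oestrogens from androgens, and Srd5a2, Hsd17b2, Hsd17b3 and Hsd17b6 were not well above background on any array.

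The receptors for the hormones that these enzymes handle were measured as well. Of 31 listed receptors and cofactors 24 were tested, and Ahr was the only call. The median was -0.12, and 15 differences were negative, beside 49.9% over all features. Of features with a gene symbol and well above background on all arrays 55.3% were negative. The oestrogen receptor Esr1 read 1.99 and 2.62 in wild-type and 2.43 and 2.71 in transgenic samples (0.27 ± 0.22, limma adjusted p = 0.554). Its samples overlapped between the groups, and the progesterone receptor gene Pgr, itself an oestrogen target, was not well above background on any array.

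Of 18 genes listed as oestrogen-responsive 14 were tested, 3 passed as lower and 1 as higher, with a median of -0.29. Over all features 2.51% passed and the median was 0.00055. The list was chosen with earlier results of these data known, so its calls are a description. Ccn5 (earlier Wisp2), a matricellular protein of mesenchymal cells, read 3.63 and 3.22 in wild-type and 2.37 and 2.34 in transgenic samples (-1.07 ± 0.15, limma adjusted p = 0.0360). The secreted glycoprotein hormone Stc2 read 1.89 and 1.71 against 1.0 and 0.96 (-0.82 ± 0.11, adjusted p = 0.0354), and the keratin Krt19 read 2.03 and 2.13 against 1.40 and 1.33 (-0.71 ± 0.10, adjusted p = 0.0369). Cited1, a transcriptional cofactor of the oestrogen receptor, went the other way, at 1.06 and 0.998 against 2.20 and 2.04 (1.09 ± 0.11, adjusted p = 0.0188). None of these 4 passed without transgenic 1 (-1.08, -0.83, -0.75 and 1.01 in the same order) or transgenic 2 (-1.05, -0.80, -0.68 and 1.18). Without an intensity trend none of the 4 passed, nor did Krt19 with the median shift or quantile normalization or Ccn5 with normexp and quantile normalization. Greb1, a widely used oestrogen target, differed by -0.27 ± 0.17 (adjusted p = 0.435). Krt19 is also an epithelial marker, and Epcam, Krt8, Krt18 and Cdh1 were not above background on any array.

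For steroid synthesis from cholesterol, 10 of 16 listed genes were tested, 1 passed as higher and 0 as lower, with a median of -0.0049. Fdxr, the mitochondrial reductase that passes electrons to steroid hydroxylases, read 2.73 and 2.83 in wild-type and 3.62 and 3.41 in transgenic samples (0.74 ± 0.11, limma adjusted p = 0.0396), and did not pass without transgenic 1 (0.63) or transgenic 2 (0.84). It passed in 8 of 12 alternatives with all arrays and missed with the median shift, quantile normalization, normexp followed by quantile normalization and no intensity trend (adjusted p = 0.0567 to 0.120). Por, the reductase that serves the microsomal enzymes Cyp7b1 and Cyp1b1, differed by 0.20 ± 0.09 (adjusted p = 0.293). The side-chain cleavage enzyme gene Cyp11a1, which starts steroid synthesis, was well above background on 1 of 4 arrays, Cyp11b1 on 1, and Cyp11b2 and Hsd3b1 on 0.

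Over the 11 lists of pathway genes, leaving out the 8 members, 139 of 183 genes were tested. Of these 61.2% had arrays that did not overlap between the groups, beside 53.0% of all features. Among features with a gene symbol and well above background on all 4 arrays the share was 55.5%. Of the 139 genes 5 passed as higher and 6 as lower. This is 7.91% called, beside 2.51% of all features and 3.19% of the 12145 features that have a gene symbol and were well above background on all 4 arrays. The lists were chosen with earlier results of these data known, so the higher share is a description and not independent evidence. The median difference was -0.07 in the lists and -0.03 in those 12145. In the 6 enzyme lists alone, 68 of 100 genes were tested, 2 passed in each direction (5.88% called), and the median was -0.05. With the members counted, 13 list genes passed: 15 did without wild-type 1, 38 without wild-type 2, 1 without transgenic 1 and 2 without transgenic 2, and 1 when the variance was modelled without a trend in intensity. Sult1e1 passed in each of these fits.

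**Figure D4:**
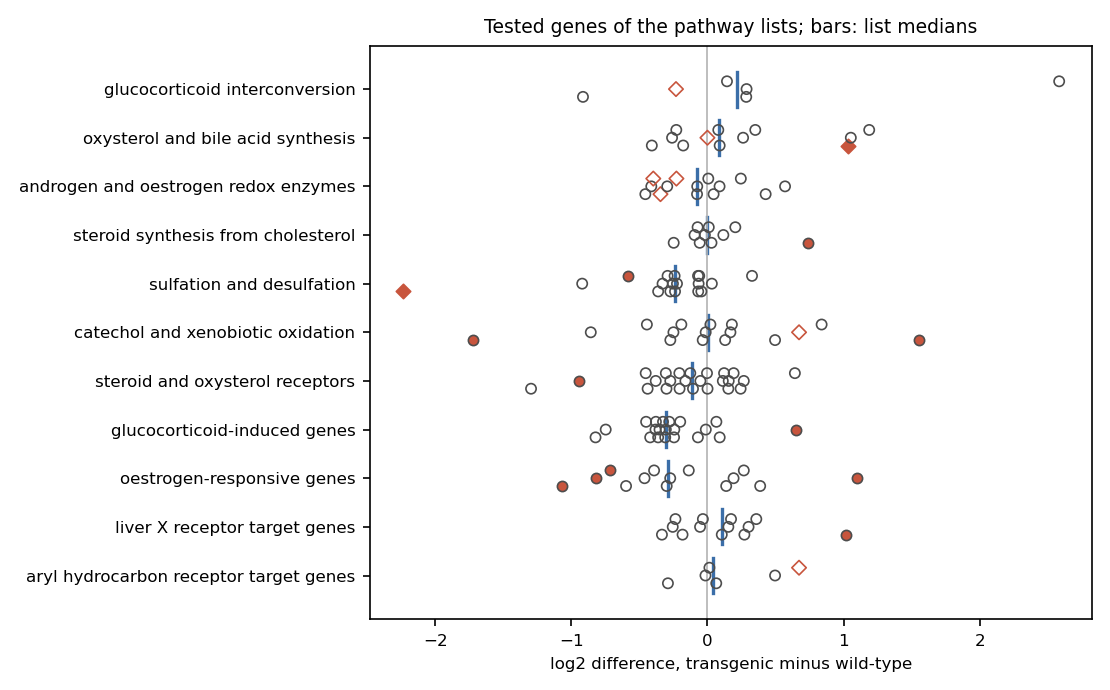
Log2 difference, transgenic minus wild-type (x axis), of every tested gene of the 11 pathway lists (rows); diamonds are members of the 8, filled symbols passed a limma adjusted p of 0.05, vertical offsets only separate points, and blue bars are list medians. List medians lie between -0.31 for the glucocorticoid-induced genes and 0.21 for glucocorticoid interconversion, and Sult1e1 at -2.24 is the lowest point of all lists.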

How the data were processed

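The members and the gene lists were chosen with earlier results of these data known. Per the file headers, the deposited spot intensity had been background-subtracted and detrended by Agilent Feature Extraction 10.7.3.1, for design 028005 with probes placed on mm9. The authors also deposited a table of log2 values, and how it was made is not stated in the labels. Its columns (medians 0.195, -0.021, -0.045 and 0.019) correlated at 0.99998 to 0.99999 with the shifted, probe-centred scanner values, so its scale, centring and direction are known from that comparison alone, and it served as an alternative. Spots marked as outliers were left out (56 probes lacked a value on some array), spots of a probe were averaged, and each array's 75th percentile of log2 signal was subtracted. RefSeq (GRCm38.p6) accessions named 26582 probes, 2892 by another symbol than the design's. A gene entered by its brightest probe, and was tested if 1 group or both had this probe well above background on both arrays.

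All 4 arrays shared 1 slide and 1 scan. The comparison used limma 3.58.1 (R 4.3.3; lmFit, eBayes with intensity trend, 2-sided, 2 residual and 3.57 prior degrees of freedom), and p-values were adjusted by Benjamini and Hochberg's method across 21531 features. The fit was tested on 20 simulated sets with variances drawn from the fitted model and 50 changed features at each fold. It called 1.5% of 1.5-fold changes, 29.1% of 2-fold, 71.3% of 4-fold and 86.5% of 8-fold changes, with 4.75 false calls per set. A gene that did not pass may therefore still differ. The simulated shares depend on how many features change, so they need not hold for the measured arrays. Named genes are the 8 members, the 5 genes nearest Sult1e1, and of each list every called gene or else the one with the smallest p; other genes were named after their values were seen. Alternatives changed the scaling, background correction, filter, probe rule, variance model and arrays.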

Additional observations from a re-analysis of the deposited data

How the results depend on the processing

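Sult1e1 kept its direction and its call under all 12 alternatives with every array, and its direction in the 4 fits with 1 array left out. Filters, probe rules and variance models could not move its difference, only its call. Of the 8 members, 1 was called with the median shift, with quantile normalization, with normexp followed by quantile normalization and without an intensity trend, since Cyp7b1 then missed the threshold; the cause was not tested. Of the list genes, 8 were called with quantile normalization and 1 without the trend, and over all features 95 without the trend. Hsd3b7, near 0, changed sign with quantile normalization (0.058), normexp (0.059), both together (0.060), the deposited value table (0.0031), without wild-type 2 (0.016) and without transgenic 1 (0.053), and with 1 array left out it ranged from -0.054 to 0.053. With 1 array left out, calls ranged from 82 to 3772, members called from 1 to 4 and list genes called from 1 to 38. Of the single-gene values under alternatives, 340 kept direction and side of the threshold, 61 lost and 8 gained a call, and 6 reversed. The 2 groups share replicate numbers, but deviations of same-numbered samples correlated at 0.0037, so the numbers are not taken as pairs; with the replicate block 1080 features and 3 members (Cyp1b1 added) were called. Keeping features without a symbol probe by probe, an alternative chosen after seeing the data, gave 451 calls. With 2 arrays a group on 1 slide, small differences are beyond reach, and probes near background, such as those of Hsd11b2 and Ch25h, give uncertain folds.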
